A study of Mus musculus with 24 samples.

Results

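Glucuronosyltransferases (UGT) and sulfotransferases (SULT) were followed in liver RNA of mice with and without the clock gene Bmal1 (Arntl) in hepatocytes. Members were taken by gene symbol alone, as genes named Ugt1a, Ugt2a, Ugt2b, Ugt3a or Sult followed by their numbers: 37 of the 35304 genes in the count table matched, and 33 of these had at least 1 count, 19 UGT and 14 SULT genes. With a mean of at least 0.5 CPM (counts scaled to library size) over all libraries required for a test, 27 members were tested, 19 UGT and 8 SULT genes, among 14446 genes tested in all. HepKO mice had floxed Bmal1 together with Cre driven by the albumin (Alb) promoter, which is active in hepatocytes. Whether other liver cells kept the gene was not tested. HepWT mice carried floxed Bmal1 without Cre, so the presence of Cre differed between the genotypes as well. All were C57BL/6 mice aged 8 to 12 weeks under night-restricted feeding, and the labels do not give their sex. Zeitgeber time (ZT) counts the hours from lights on, and livers were taken at ZT2, 6, 10, 14, 18 and 22, which makes 12 groups of 2 libraries, 24 in all. Nothing in the labels says that these libraries came from separate animals, so the p values reflect the spread among libraries alone, which may be technical.

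Both families make lipophilic compounds soluble enough to leave in bile or urine. UGT enzymes sit in the membrane of the endoplasmic reticulum and transfer glucuronic acid from UDP-glucuronate to bilirubin, steroids, bile acids, phenols and drugs; SULT enzymes sit in the cytosol and transfer sulfate from 3′-phosphoadenosine-5′-phosphosulfate (PAPS) to phenols, oestrogens, thyroid hormones, catecholamines and bile acids. Genes of the UGT1A group share 1 locus: each has a first exon and promoter of its own, spliced to the same last exons, so that the isoforms differ in the part that binds the substrate. BMAL1 pairs with CLOCK and binds E-box sequences, while the PAR bZIP factors DBP, TEF and HLF and the repressor NFIL3, which the clock drives, bind D-box sequences.

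Shown first are the promoters of the 3 members that held a match to TTANGTAA, the D-box letters searched here, and that of the member with the largest increase. They were not chosen by the size of the change alone. RefSeq (GRCm38.p6) gave a window from 250 bases before to 50 bases after the start for 24 of the 27 tested members, and these were searched on both strands for the E-box CACGTG, the D-box TTANGTAA and the core of the xenobiotic response element, GCGTG; no match overlaps another motif in the windows printed here. The 24 genes had 26 windows, since Sult1b1 and Sult2a8 had a further window each. None of the 26 windows held the E-box, which 7.15% of all 32851 RefSeq promoters did. The D-box stood in 3 of the 24 genes, or 3 of the 26 windows, and in 2.32% of all promoters. Its holders were Ugt1a9 (chr1:88070529-88070828, plus strand), with the motif at position -102 from the start, Sult1a1 (chr7:126676369-126676668, minus strand), with it at -197, and Ugt2b1 (chr5:86926454-86926753, minus strand), with it at -59. GCGTG stood in windows of Ugt1a8, Ugt1a5, Sult1b1 and Sult1d1, which are 4 of the 24 genes, or 4 of the 26 windows, beside 32.4% of all promoters. The other window of Sult1b1 did not hold it. Sult1e1 (chr5:87591562-87591861, minus strand), the member with the largest increase, held none of the 3. Ugt1a10 and Ugt1a8, which fell more than Ugt1a9 on the log2 scale, held neither the E-box nor the D-box, and their windows are not shown. A match describes letters in this window and not a bound site. The search left the base N of the D-box free, and the matches read TTAAGTAA in Ugt1a9, TTAGGTAA in Sult1a1 and TTACATAA in Ugt2b1. Which of these forms the D-box factors bind was not tested. In the 4 sequences below, 5′ to 3′ on the strand of the gene, capitals mark the D-box or its reverse complement.
Ugt1a9: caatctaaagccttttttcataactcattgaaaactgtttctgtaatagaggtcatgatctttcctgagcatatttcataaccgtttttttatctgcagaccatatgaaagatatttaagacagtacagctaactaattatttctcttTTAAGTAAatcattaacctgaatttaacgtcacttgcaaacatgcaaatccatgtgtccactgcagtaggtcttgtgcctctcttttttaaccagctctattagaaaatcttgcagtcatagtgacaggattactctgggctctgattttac
Sult1a1: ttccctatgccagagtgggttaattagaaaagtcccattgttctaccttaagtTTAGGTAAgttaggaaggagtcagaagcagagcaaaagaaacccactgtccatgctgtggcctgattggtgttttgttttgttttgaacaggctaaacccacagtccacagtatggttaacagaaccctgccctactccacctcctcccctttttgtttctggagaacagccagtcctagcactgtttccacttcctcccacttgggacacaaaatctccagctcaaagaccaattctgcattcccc
Ugt2b1: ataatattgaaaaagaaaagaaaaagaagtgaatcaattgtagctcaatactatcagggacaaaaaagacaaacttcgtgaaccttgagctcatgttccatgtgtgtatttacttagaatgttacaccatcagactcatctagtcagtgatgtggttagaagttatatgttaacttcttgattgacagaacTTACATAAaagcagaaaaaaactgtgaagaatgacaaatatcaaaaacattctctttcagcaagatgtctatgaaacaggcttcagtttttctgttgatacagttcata
Sult1e1: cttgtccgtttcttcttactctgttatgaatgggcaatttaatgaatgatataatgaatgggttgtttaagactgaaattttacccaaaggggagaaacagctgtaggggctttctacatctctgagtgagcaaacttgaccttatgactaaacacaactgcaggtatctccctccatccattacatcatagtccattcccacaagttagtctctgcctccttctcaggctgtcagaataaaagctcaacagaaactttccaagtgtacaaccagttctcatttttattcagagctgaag

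Library facts that bear on every comparison were as follows. The 5 HepKO libraries numbered 2 from ZT6 to ZT22 were the shallowest, with total counts of 12997689 to 16910415, while the other 19 libraries had 23583035 to 30677807. Arntl had a 24 h amplitude (mean to peak, log2) of 0.32 in HepKO and 2.27 in HepWT, and these rhythms differed (edgeR adjusted p = 0.00223), while its gene-wide counts were 10.3 to 17.8 CPM in HepKO libraries and 1.26 to 45.7 CPM in HepWT libraries. Alb fell to 25050 ± 4322 CPM in HepKO, against 63910 ± 7843 CPM in HepWT (SD, n = 12 each); of the 10 hepatocyte markers, 2 fell and 8 did not pass. All 9 macrophage markers fell (summed level 219.6 to 457 CPM in HepKO and 281 to 512 CPM in HepWT), and 2 of 5 tested cholangiocyte markers rose (47.0 to 158 CPM in HepKO and 25.9 to 58.4 CPM in HepWT). Of 6 liver endothelium markers 4 fell (333 to 402 CPM in HepKO and 388 to 423.5 CPM in HepWT), and of 6 stellate cell and fibroblast markers 3 fell and 1 rose (368.5 to 485 CPM in HepKO and 377 to 580 CPM in HepWT). Both tested intestine markers fell (26.8 to 47.9 CPM in HepKO and 36.5 to 71.3 CPM in HepWT), and neither of the 2 tested lymphocyte markers passed. Markers of exocrine pancreas and kidney were too low to test, although the pancreas markers summed to 29.7 CPM in 1 HepKO library. These marker counts are to be read beside the 15.6% of all genes tested that rose and the 15.2% that fell. The part of these cell type differences in the results below was not tested; in whole liver, fewer cells of a type and less RNA per cell cannot be told apart. Within HepWT, replicate 2 libraries differed from replicate 1 libraries in 66 genes. Ugt3a1 was the only member among the 66. None of the 4 tested sex-linked genes passed between genotypes. The sex-linked list summed to 210 to 270 CPM in HepKO libraries and 216 to 272 CPM in HepWT libraries. Ddx3y, a Y-linked gene, averaged 124 CPM in replicate 1 and 120 CPM in replicate 2 of HepKO, and 116 and 122 CPM in those of HepWT. Y-linked RNA was thus present in each of these sets of libraries.

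Of the 19 UGT genes, 7 were higher and 8 lower in HepKO averaged over the day, and of the 8 tested SULT genes 3 were higher and 1 lower (edgeR quasi-likelihood test, Benjamini-Hochberg adjusted p below 0.05 over all 14446 genes). Over all genes tested, 15.6% were higher and 15.2% lower by the same rule. The median log2 difference, HepKO minus HepWT, was -0.01 in UGT genes, 0.02 in SULT genes and -0.01 over all genes, and each family held genes on both sides of 0. The median size of the difference regardless of sign was 0.51 in UGT genes and 0.35 in SULT genes, beside 0.13 over all genes. Libraries of the 2 genotypes did not overlap in 3 UGT genes (Ugt1a9, Ugt1a10 and Ugt3a2) and in 0 SULT genes, beside 1.72% of all genes tested. Ugt1a10, Ugt1a8 and Sult1e1 reached the mean of 0.5 CPM only through the genotype where they were higher. Their place in these counts is therefore not independent of the filter.

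**Figure D1:**
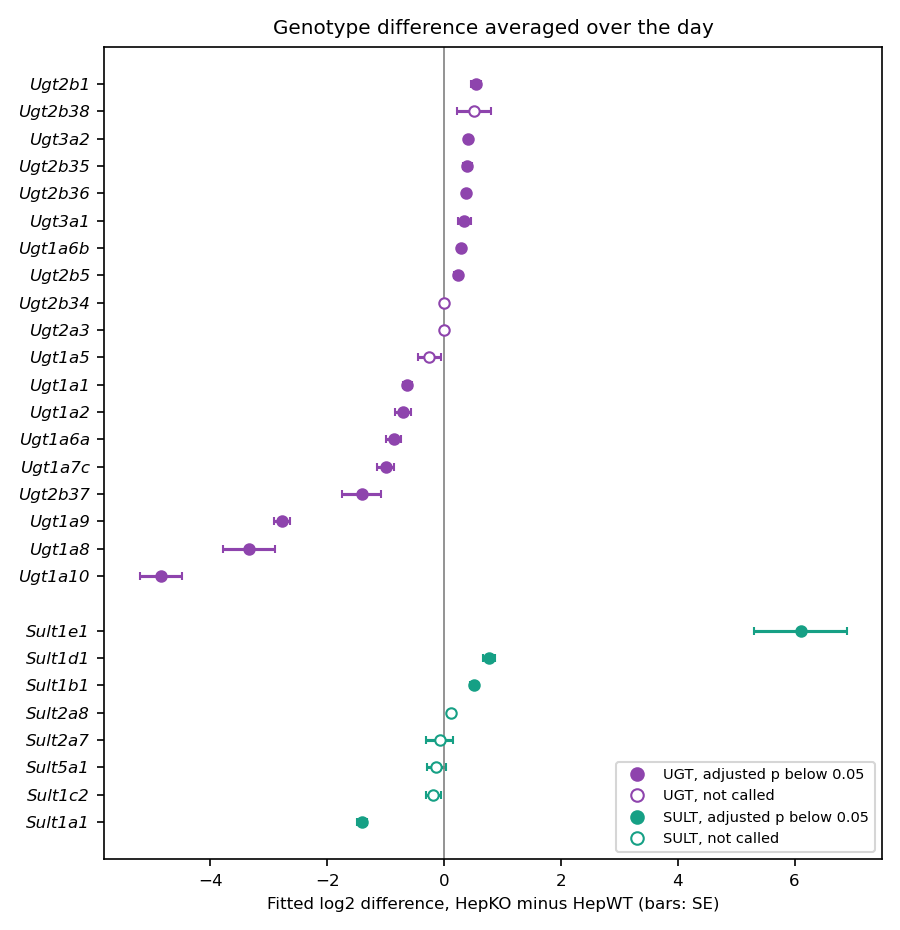
Fitted log2 difference (HepKO minus HepWT, x axis) of each of the 27 tested members averaged over the 6 times, with bars for the standard error; filled points passed the adjusted p of 0.05. Points run from -4.84 for Ugt1a10 to 6.10 for Sult1e1, while the increases of UGT genes reach 0.54.

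The UGT1A locus on chromosome 1 (88055388 to 88220002, GRCm38, plus strand) held 7 of the 8 UGT genes that fell. Of its 9 genes, 7 fell, Ugt1a6b rose and Ugt1a5 did not pass, while over all genes tested 15.2% fell and 15.6% rose. Their summed level was 232 ± 24.2 CPM in HepKO and 380.5 ± 52.6 CPM in HepWT (SD, n = 12 each), and the 12 HepKO libraries, at 201 to 285 CPM, all lay below the 12 HepWT libraries, at 293 to 467 CPM. A limit applies to all 9: they share 50.4% to 70.9% of their 100-base transcript windows with other genes, mostly each other, and each overlaps the antisense gene Gm20528, and the labels do not say how the authors' counting split such reads.

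Ugt1a9 showed the largest change among UGT genes above 10 CPM. Its human counterpart conjugates bulky phenols such as propofol. In HepKO it had 5.15 CPM in the lowest, 11.2 CPM at the median and 21.9 CPM in the highest library, against 51.7, 78.6 and 109 CPM in HepWT. No HepKO library reached the lowest HepWT library, and HepKO was below HepWT at all 6 times. The means were 11.7 ± 4.10 CPM in HepKO and 78.9 ± 15.99 CPM in HepWT (SD, n = 12 each), and the fitted level was 6.86-fold lower in HepKO (log2 -2.78 ± 0.13 SE, edgeR adjusted p = 2.44e-10).

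The neighbours on either side of Ugt1a9 were near 0 in HepKO. Ugt1a10 had 14 counts in all 12 HepKO libraries together and 410 in the HepWT libraries, or 0 CPM in the lowest, 0.052 CPM at the median and 0.144 CPM in the highest HepKO library, against 0.860, 0.989 and 2.68 CPM in HepWT. The 2 sets of libraries did not overlap, and 3 HepKO libraries had no count (log2 -4.84 ± 0.37, edgeR adjusted p = 7.56e-08). Ugt1a8 had 24 counts in HepKO and 333 in HepWT, with a range of 0 to 0.260 CPM (median 0.118) in HepKO and of 0.115 to 2.23 CPM (median 1.19) in HepWT. Its libraries overlapped, because HepWT ZT6 replicate 2 lay at 0.115 CPM, and 6 of 12 HepKO libraries lay below every HepWT library (log2 -3.33 ± 0.44, edgeR adjusted p = 2.22e-05). Without HepKO ZT6 replicate 2 the Ugt1a8 difference was -3.92, and with the 5 shallower HepKO libraries left out it was -4.15. At such counts the fitted folds are imprecise, while the direction was the same at all 6 times for both genes. Both genes reached the limit for a test through HepWT alone, with means of 1.28 CPM (Ugt1a10) and 1.04 CPM (Ugt1a8). Their HepKO means were 0.055 and 0.101 CPM. At such a HepKO level only a gene higher in HepWT could be tested, so these p values are not free of the filter.

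The remaining UGT1A genes changed less. Ugt1a1, the bilirubin-conjugating enzyme and the most abundant gene of the locus, fell to 139 ± 17.7 CPM in HepKO, against 217 ± 42.5 CPM in HepWT (log2 -0.63 ± 0.08, edgeR adjusted p = 9.4e-06), with 11 of 12 HepKO libraries below the lowest HepWT library. Ugt1a7c (log2 -0.9998), Ugt1a6a (log2 -0.86) and Ugt1a2 (log2 -0.70) fell, with HepKO below HepWT at all 6 times and no library above 16.3 CPM. Ugt1a6b, which like Ugt1a6a is of the group whose human counterpart conjugates small planar phenols, rose to 55.0 ± 3.75 CPM, against 45.4 ± 6.60 CPM in HepWT (log2 0.29 ± 0.05, edgeR adjusted p = 0.000706). Ugt1a5, at 16.5 ± 4.46 CPM in HepKO and 19.8 ± 7.17 CPM in HepWT, did not pass (log2 -0.25 ± 0.19, edgeR adjusted p = 0.361); against HepWT replicate 1 libraries alone its difference was -0.49 and passed (adjusted p = 0.0298), and against HepWT replicate 2 libraries alone it was 0.14 and did not. In map order, from the first exon farthest upstream to the one nearest the shared exons, the log2 differences were -4.84 (Ugt1a10), -2.78 (Ugt1a9), -3.33 (Ugt1a8), -0.9998 (Ugt1a7c), 0.29 (Ugt1a6b), -0.86 (Ugt1a6a), -0.25 (Ugt1a5), -0.70 (Ugt1a2) and -0.63 (Ugt1a1). The 3 largest falls were thus those of the 3 genes at the upstream end, an order seen after the values were known. Among these, Ugt1a10 and Ugt1a8 could be tested only through their HepWT level.

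**Figure D2:**
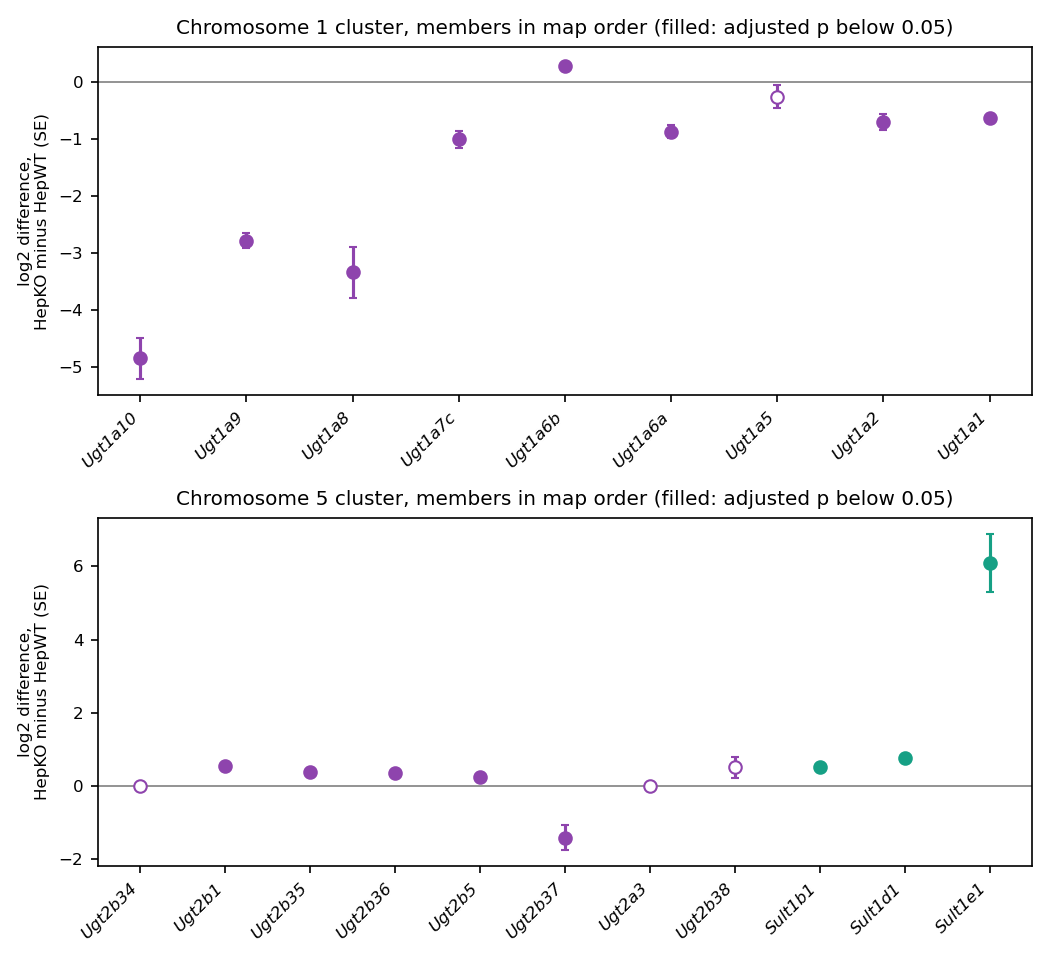
Log2 difference (HepKO minus HepWT, y axis, bars for SE) of the members at the 2 loci that hold most of them, in map order along the x axis, UGT in purple and SULT in green; filled points passed the adjusted p of 0.05. On chromosome 1 the values lie between -4.84 and 0.29, with the lowest 3 at the left end; on chromosome 5 the values of the rising genes other than Sult1e1, at 6.10, lie between 0.24 and 0.77.

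A second locus, on chromosome 5 (86889767 to 87591594), held 11 tested members, the 8 UGT2A and UGT2B genes and 3 SULT genes. Of these 11, 7 rose, 1 fell and 3 did not pass, beside 15.6% of all genes tested that rose and 15.2% that fell. Summed over the locus, HepKO libraries had 5123 ± 439.7 CPM and HepWT libraries 4126 ± 500.1 CPM (SD, n = 12 each); the ranges, 4345 to 5680 CPM in HepKO and 3282 to 4755 CPM in HepWT, overlapped. The 8 UGT2 genes made up 4841 ± 406 CPM in HepKO and 3961 ± 487.5 CPM in HepWT, most of the UGT total, which was higher in HepKO (5652 ± 419.7 CPM) than in HepWT (4781 ± 538 CPM) although more UGT genes fell than rose. SULT totals were 1347 ± 135 CPM in HepKO and 1311 ± 143 CPM in HepWT, less apart than 1 SD.

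Among UGT2 enzymes, which conjugate steroids and bile acids, the 4 that rose were all abundant. Ugt2b1 had 905 CPM in the lowest, 1344 CPM at the median and 1536 CPM in the highest HepKO library, against 631, 946 and 1093 CPM in HepWT. In HepKO 11 of 12 libraries lay above the highest HepWT library, the exception being HepKO ZT14 replicate 2, and the fitted rise was 1.46-fold (log2 0.54 ± 0.08, edgeR adjusted p = 9.81e-05). Ugt2b36 rose to 847 ± 65.5 CPM, against 658 ± 86.2 CPM in HepWT (log2 0.37). Its libraries overlapped between genotypes, with 8 of 12 HepKO libraries above every HepWT library. Ugt2b35 rose to 447 ± 105 CPM, against 337 ± 62.0 CPM in HepWT (log2 0.40). Ugt2b5 rose to 1126 ± 106 CPM, against 959.5 ± 169 CPM in HepWT (log2 0.24 ± 0.06, edgeR adjusted p = 0.00922), though not when the 5 shallower HepKO libraries were left out (log2 0.20, adjusted p = 0.112). Ugt2b5 shares 24.7% of its transcript windows with Ugt2b38 and Ugt2b37, so its reads are less certain.

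Ugt2b37 was the 1 member of the chromosome 5 locus that fell. It had 0.801, 2.86 and 6.02 CPM in the lowest, median and highest HepKO library, against 2.102, 6.64 and 15.4 CPM in HepWT. The genotypes overlapped, with 3 HepKO libraries below every HepWT library and 7 HepWT libraries above every HepKO library (log2 -1.41 ± 0.34, edgeR adjusted p = 0.00424). HepWT replicate 2 libraries averaged 11.2 CPM and HepWT replicate 1 libraries 4.97 CPM, and against replicate 1 alone the difference was -0.63 and did not pass (edgeR adjusted p = 0.142). Ugt2b38 had the widest spread of the abundant UGT genes, 9.90 to 96.5 CPM in HepKO and 10.6 to 60.2 CPM in HepWT; both ends of the HepKO range were the 2 libraries of ZT14, and it did not pass (log2 0.51 ± 0.29, edgeR adjusted p = 0.199). The 2 libraries of HepKO ZT14 moved it in opposite ways: without replicate 1 the difference was 0.11 (adjusted p = 0.758), and without replicate 2 it was 0.65 and passed (adjusted p = 0.028). Ugt2b34 (log2 0.00) and Ugt2a3 (log2 -0.01) did not pass, and their rhythms are described with those of the other members.

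The UGT3A genes, on chromosome 15, encode enzymes that in human use other sugars than glucuronate. Ugt3a2 had 493, 514 and 569.5 CPM in the lowest, median and highest HepKO library, against 352, 384 and 483 CPM in HepWT. All 12 HepKO libraries lay above all 12 HepWT libraries, by a small margin (log2 0.41 ± 0.05, edgeR adjusted p = 1.09e-05). Ugt3a1 rose to 55.0 ± 4.86 CPM, against 43.4 ± 9.69 CPM in HepWT (log2 0.34 ± 0.11, edgeR adjusted p = 0.0286). That call was lost in 12 of 35 alternatives, with an adjusted p of 0.0513 to 0.0665 without HepKO ZT10 replicate 2, HepKO ZT14 replicate 1, HepKO ZT18 replicate 1 or HepWT replicate 2 of ZT2, ZT6, ZT10, ZT14 or ZT22. It was also lost with HepWT replicate 1 libraries alone (log2 0.10, adjusted p = 0.249), since Ugt3a1 averaged 35.4 CPM in HepWT replicate 2 and 51.4 CPM in HepWT replicate 1.

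**Figure D3:**
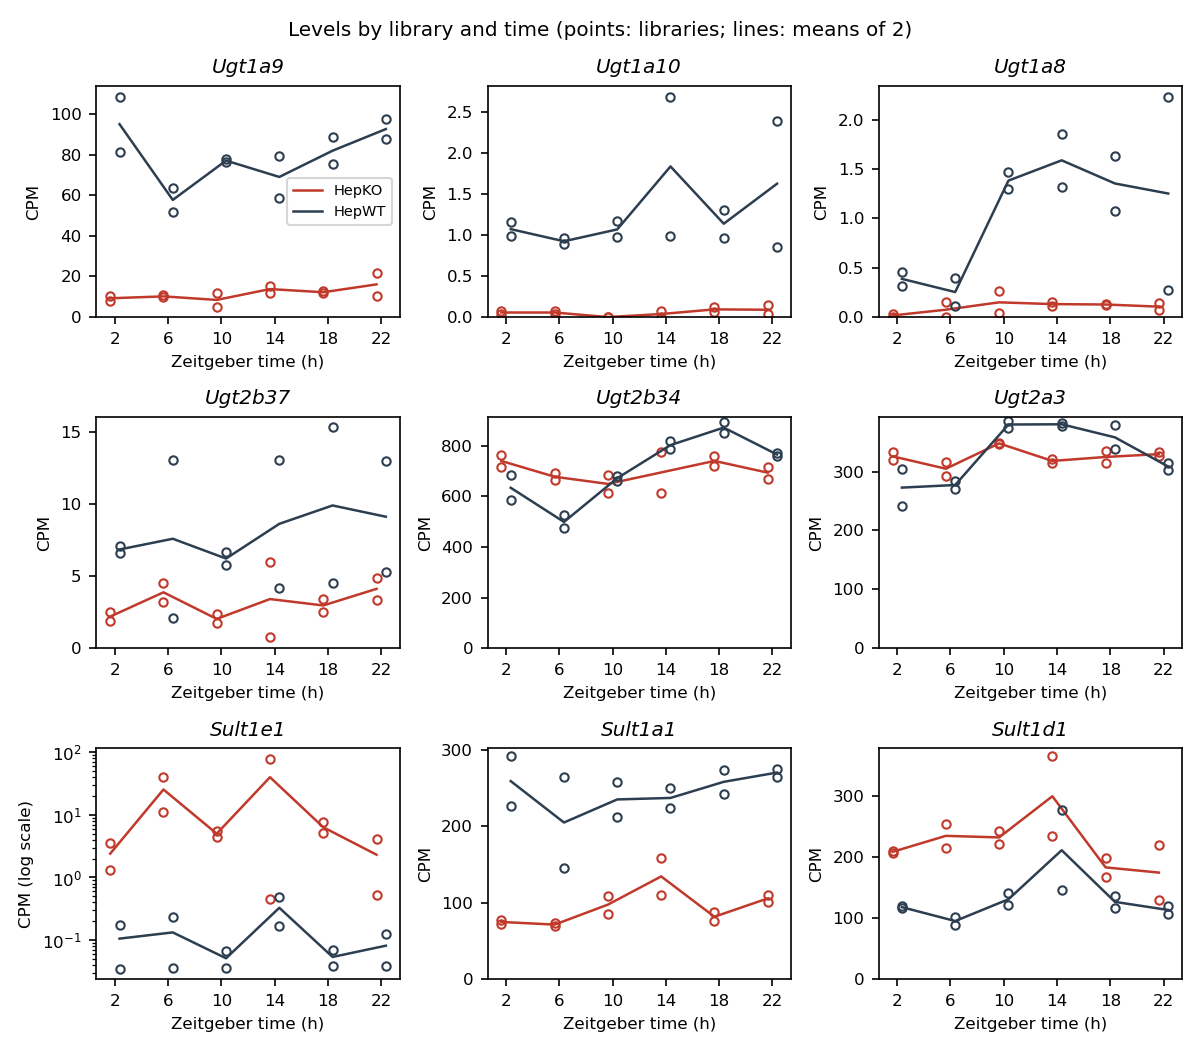
Level (CPM, y axis, from 0 except for a log axis in the panel of Sult1e1) at each zeitgeber time (x axis) of 9 members described in the text; points are libraries, lines the means of the 2 libraries, HepKO in red and HepWT in dark blue. Ugt1a9 stays at or below 21.9 CPM in HepKO and at or above 51.7 CPM in HepWT, whereas the lines of Ugt2b34 cross, with HepKO libraries between 615 and 776 CPM and HepWT libraries between 473 and 894 CPM.

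Sult1e1, the oestrogen sulfotransferase, rose more than any other member. At ZT2, 6, 10, 14, 18 and 22 the HepKO libraries had 3.49 and 1.31, 11.2 and 39.6, 4.42 and 5.60, 79.5 and 0.458, 7.58 and 5.12, and 0.522 and 4.11 CPM, against 0.035 and 0.176, 0.036 and 0.230, 0.036 and 0.067, 0.165 and 0.492, 0.038 and 0.069, and 0.039 and 0.124 CPM in HepWT. In HepKO 11 of 12 libraries lay above the highest HepWT library, and the 2 HepKO libraries of ZT14 were the highest and the lowest of that genotype. The means were 13.6 ± 23.3 CPM in HepKO and 0.126 ± 0.133 CPM in HepWT (SD, n = 12 each), or 3648 counts in HepKO and 40 in HepWT. Sult1e1 thus reached the limit for a test through HepKO alone. At this HepWT level only a gene higher in HepKO could be tested. The fitted rise was 68.6-fold (log2 6.10 ± 0.79, edgeR adjusted p = 1.67e-05), and with each library left out in turn the log2 difference lay between 5.04, without HepKO ZT14 replicate 1, and 6.38. Against HepWT replicate 1 libraries alone it was 7.10. Without the highest library the HepKO mean was 7.59 CPM. HepWT replicate 2 libraries averaged 0.193 CPM and HepWT replicate 1 libraries 0.058 CPM, each below the HepKO mean.

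Sult1a1, which sulfates phenols, was the 1 SULT gene that fell. It had 69.1, 86.7 and 159 CPM in the lowest, median and highest HepKO library, against 145, 254 and 291 CPM in HepWT. HepKO ZT14 replicate 2, at 159 CPM, and HepWT ZT6 replicate 2, at 145 CPM, were the only libraries in the overlap. The fitted level was 2.65-fold lower in HepKO (log2 -1.40 ± 0.09, edgeR adjusted p = 7.9e-09), and the difference lay between -1.52 and -1.33 in all 35 alternatives. Its promoter window held a match to the D-box letters TTANGTAA, as did those of Ugt1a9, which also fell, and Ugt2b1, which rose. Of its sequence, 1.8% of its transcript windows occur in another gene, Gm6939, and 4.0% of its exon length lies opposite Sgf29. The other 2 SULT genes that rose lie beside Sult1e1 on chromosome 5. Sult1d1, which in mouse sulfates catecholamines, rose to 223 ± 56.1 CPM, against 133 ± 48.3 CPM in HepWT (log2 0.77 ± 0.11, edgeR adjusted p = 3.53e-05). Sult1b1, known for thyroid hormone sulfation, rose to 45.4 ± 6.18 CPM, against 31.9 ± 5.63 CPM in HepWT (log2 0.51 ± 0.07, edgeR adjusted p = 2.44e-05).

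Sult2a8, a bile acid sulfotransferase of mouse liver and the most abundant SULT gene, had 955 ± 82.5 CPM in HepKO and 885 ± 145 CPM in HepWT and did not pass (log2 0.12 ± 0.06, edgeR adjusted p = 0.144); it passed against HepWT replicate 2 libraries alone (log2 0.15, adjusted p = 0.0128) and without HepWT ZT6 replicate 2 (log2 0.15, adjusted p = 0.0332). Sult5a1 (log2 -0.13), Sult1c2 (log2 -0.19) and Sult2a7 (log2 -0.07) did not pass either. The 10 other SULT symbols were below the limit for a test, the nearest being Sult4a1 with a mean of 0.046 CPM, while Sult2a7 (0.812 CPM), Ugt1a10 (0.654 CPM) and Ugt1a8 (0.559 CPM) lay just inside it. Sult4a1, a form best known from brain, had 2 counts in all HepKO libraries together and 28 in HepWT. Sult2b1 had 3 counts in HepKO and 12 in HepWT, and Sult3a1, Sult2a1, Sult2a2 and Sult3a2 had at most 8 in all. Sult6b1, Sult6b2, Sult2a5 and Sult2a6 had 0 counts, which allows up to 0.0115 CPM over the HepKO and 0.00907 CPM over the HepWT libraries (3 counts of the group total, counting error only).

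Compared between genes per kilobase of exon, the order of levels was led by the same 4 members in both genotypes. In HepKO these were Ugt2b5 (606 ± 57.2 CPM per kilobase), Ugt2b1 (521 ± 65.8), Ugt2b36 (411 ± 31.8) and Sult2a8 (291 ± 25.1), and in HepWT Ugt2b5 (516 ± 90.9), Ugt2b1 (359 ± 52.2), Ugt2b36 (319.7 ± 41.9) and Sult2a8 (269 ± 44.2). In HepKO the intervals of 1 SD of Ugt2b5 and Ugt2b1 overlapped. In HepWT those of Ugt2b1 and Ugt2b36 overlapped, and so did those of Ugt2b36 and Sult2a8. Sult1a1 changed place between the genotypes. It had 62.5 ± 17.02 CPM per kilobase in HepKO, close to Ugt1a1 (62.7 ± 7.94), and 162 ± 25.9 in HepWT, close to Ugt2b34 (164 ± 30.3). Exon lengths came from the union of annotated exons, not from the isoforms in use, which limits such comparisons for UGT1A genes above all.

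Rhythm was tested as a wave of 24 h fitted separately to each genotype. In HepKO 2 of 19 UGT genes and 1 of 8 SULT genes had a rhythm past the threshold, beside 17.9% of all genes, and in HepWT 7 UGT and 5 SULT genes did, beside 36.1% of all genes. A call in 1 genotype alone does not show a difference, and the difference itself passed for 1 UGT gene, Ugt2b34, and for 0 SULT genes, beside 2.06% of all genes; with unadjusted p below 0.05 it passed for 5 UGT genes and 1 SULT gene, beside 13.8% of all genes, and DESeq2 called 2 UGT genes and 0 SULT genes. Median amplitudes (mean to peak, log2) of UGT genes were 0.17 in HepKO and 0.23 in HepWT, those of SULT genes 0.27 in HepKO and 0.32 in HepWT, and those of all genes 0.17 in HepKO and 0.20 in HepWT. The amplitude was lower in HepKO in 13 of 19 UGT genes, in 5 of 8 SULT genes and in 8820 of 14446 genes.

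**Figure D4:**
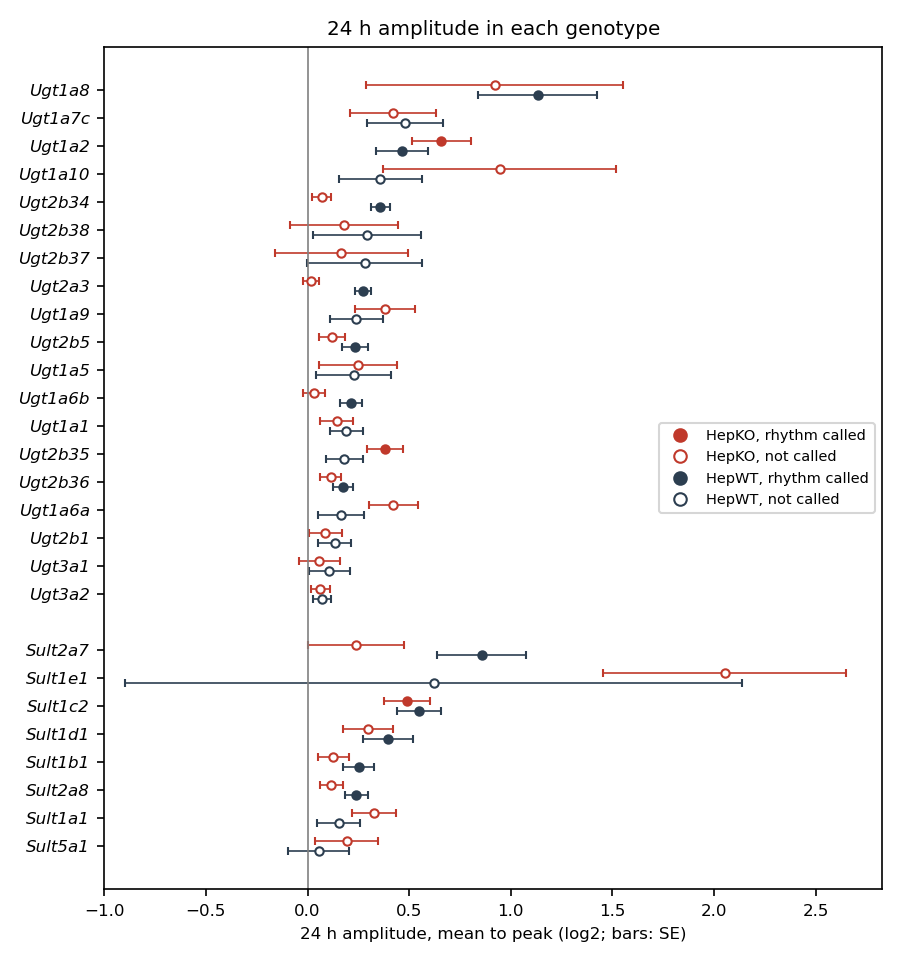
Fitted 24 h amplitude (log2, mean to peak, x axis, bars for SE) of the 27 tested members, HepKO in red above HepWT in dark blue; filled points are rhythms past the adjusted p of 0.05. Filled HepWT points number 12 and filled HepKO points 3; for Ugt2b34 the HepKO point is at 0.07 and the HepWT point at 0.36, with no overlap of the bars.

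Ugt2b34 had no rhythm past the threshold in HepKO and a rhythm in HepWT, around nearly the same mean. At ZT2, 6, 10, 14, 18 and 22 the HepKO libraries had 764 and 717, 665 and 691, 615 and 685, 776 and 615, 722 and 759, and 671 and 718 CPM, against 684.5 and 585, 473 and 525, 662 and 682.5, 786 and 820.5, 852 and 894, and 771 and 761 CPM in HepWT. Both HepKO libraries were above both HepWT libraries at ZT2 and ZT6 and below them at ZT14, ZT18 and ZT22, and the genotypes overlapped at ZT10. The amplitude was 0.07 ± 0.05 in HepKO and 0.36 ± 0.05 in HepWT, where the fitted peak was at ZT 17.5 (edgeR adjusted p = 2.29e-05), and the rhythms differed (edgeR adjusted p = 0.0203). With the 6 times as a factor the interaction did not pass (adjusted p = 0.109), nor did the rhythm difference when the 5 shallower HepKO libraries were left out (adjusted p = 0.224), without HepWT ZT6 replicate 1 (adjusted p = 0.051), or against HepWT replicate 1 (adjusted p = 0.252) or replicate 2 alone (adjusted p = 0.070).

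Ugt2a3, at the same locus, whose human counterpart conjugates bile acids, had the next smallest p among the members. Its HepKO libraries ran from 294 to 350 CPM and its HepWT libraries from 241 to 386 CPM, and the amplitude was 0.02 ± 0.04 in HepKO and 0.27 ± 0.04 in HepWT. The rhythm difference did not pass in edgeR (adjusted p = 0.0538) and passed in DESeq2 (adjusted p = 0.00554) and, in edgeR, without HepKO ZT6 replicate 2, HepWT ZT2 replicate 1 or HepWT ZT18 replicate 2. For Ugt1a6a the amplitude was larger in HepKO (0.42 ± 0.12) than in HepWT (0.16 ± 0.11). Its HepKO rhythm narrowly missed the threshold in edgeR (adjusted p = 0.0502) and passed in DESeq2 (adjusted p = 0.0226). The rhythm difference of Ugt1a6a did not pass in edgeR (adjusted p = 0.15). Further rhythms called in HepWT were those of Ugt2b5, Ugt2b36, Ugt1a6b, Ugt1a2 and Ugt1a8 among UGT genes, with amplitudes of 0.18 for Ugt2b36 to 1.13 for Ugt1a8. With any single library left out, the HepWT calls of Ugt2b34 and Ugt2a3 held. Those of Ugt2b5 and Ugt2b36 were lost without ZT2 replicate 2, either library of ZT10 or ZT22 replicate 1, and that of Ugt2b5 also without ZT14 replicate 1; those of Ugt1a6b (ZT2 replicate 2, ZT14 replicate 1), Ugt1a2 (either of ZT2, ZT6 replicate 2, ZT14 replicate 1) and Ugt1a8 (ZT2 replicate 1, ZT6 replicate 2) were lost without the HepWT libraries named. In all, without HepWT ZT2 replicate 2 the count of UGT rhythms in HepWT was 3, without HepWT ZT14 replicate 1 it was 4, and with HepWT replicate 2 libraries alone it was 3. Ugt2b35 (amplitude 0.38 in HepKO and 0.18 in HepWT) was called in HepKO alone, a call lost without HepKO ZT6 replicate 2 (adjusted p = 0.0521), and Ugt1a2 (0.66 in HepKO and 0.46 in HepWT) was called in both genotypes. When the 5 shallower HepKO libraries were left out, 0 UGT rhythms were called in HepKO.

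Among SULT genes, Sult1c2 was called rhythmic in both genotypes, with an amplitude of 0.49 ± 0.11 in HepKO and 0.55 ± 0.11 in HepWT and fitted peaks at ZT 7.73 in HepKO and ZT 8.58 in HepWT. Sult2a8 (0.12 in HepKO and 0.24 in HepWT), Sult1d1 (0.30 in HepKO and 0.40 in HepWT), Sult1b1 (0.13 in HepKO and 0.25 in HepWT) and Sult2a7 (0.24 in HepKO and 0.86 in HepWT) were called in HepWT alone. Of these calls that of Sult2a8 held with any single library left out, that of Sult2a7 was lost without HepWT ZT2 replicate 2, and that of Sult1b1 was lost without either HepWT library of ZT6, ZT10 or ZT22 or without HepWT ZT18 replicate 2. None of these 4 differed between genotypes past the threshold, the lowest adjusted p being 0.201 for Sult2a7 in edgeR. For Sult1d1 1 library carried much of the HepWT wave: HepWT ZT14 replicate 2 had 277 CPM beside 146 CPM in replicate 1, and without it the amplitude was 0.19 and the call was lost (adjusted p = 0.317), as it was without either HepWT library of ZT6. The Sult1c2 call in HepKO was lost without HepKO ZT18 replicate 1 (adjusted p = 0.0532) and when the 5 shallower HepKO libraries were left out (adjusted p = 0.138), and its call in HepWT was lost with HepWT replicate 2 libraries alone (adjusted p = 0.151). With HepWT replicate 1 libraries alone the HepWT calls of Sult2a8, Sult1b1, Sult1d1 and Sult2a7 were lost. The 2 most changed SULT levels had no called rhythm: Sult1e1 with an amplitude of 2.05 ± 0.60 in HepKO (adjusted p = 0.0617) and Sult1a1 with 0.33 ± 0.11 (adjusted p = 0.0859). Both passed in HepKO when single libraries were left out, Sult1e1 without HepKO ZT6 replicate 2, ZT10 replicate 1, ZT10 replicate 2 or ZT14 replicate 2, with an adjusted p as low as 0.0186.

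Genes that supply the cofactors of both families were read from the same fit. Of 6 tested genes of UDP-glucuronate supply and use, 2 rose and 1 fell. Ugdh, which makes UDP-glucuronate, rose to 241 ± 46.4 CPM, against 156 ± 27.2 CPM in HepWT (log2 0.62), and Ugp2, which makes UDP-glucose, rose to 459 ± 63.3 CPM, against 365 ± 67.5 CPM in HepWT (log2 0.34). Gusb, the lysosomal glucuronidase that removes glucuronate, fell (log2 -0.38). Of 11 tested genes of PAPS and sulfate supply, 3 rose and 2 fell. Those with the largest rise, Csad (log2 1.04) and Cdo1 (log2 0.52), belong to cysteine oxidation and taurine synthesis, and the 2 that fell were the sulfate transporter Slc26a1 (log2 -0.35) and the phosphatase Bpnt2 (log2 -0.11). The PAPS synthases Papss1 (log2 0.20 ± 0.06, edgeR adjusted p = 0.023) and Papss2 (log2 -0.19 ± 0.10, adjusted p = 0.164) had small differences, that of Papss1 past the threshold. The share called in each direction is to be read beside the 15.6% and 15.2% of all genes.

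Of 12 tested transporters that move conjugates or their substrates across the hepatocyte membrane, 2 rose and 5 fell, beside 15.6% and 15.2% of all genes tested. Slco1a4, an uptake carrier, rose to 141 ± 40.2 CPM, against 66.2 ± 22.8 CPM in HepWT (log2 1.08 ± 0.16, edgeR adjusted p = 5.22e-05), and Abcc3, which exports glucuronides to blood, rose (log2 0.38). The P-glycoprotein genes Abcb1a (log2 -2.04 ± 0.20, edgeR adjusted p = 6.44e-07) and Abcb1b (log2 -0.83) fell. Abcc2, which exports glucuronides to bile, had 464 ± 81.5 CPM in HepKO and 511 ± 128 CPM in HepWT and did not pass (adjusted p = 0.219).

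Of 22 tested transcription factors known to act on conjugation genes, 4 rose and 11 fell, and 4 differed in rhythm, among them Dbp, Tef and Hlf. Over all genes tested, 15.6% rose, 15.2% fell and 2.06% differed in rhythm. The list includes factors that the clock drives, Dbp, Tef and Hlf among them, so its count of rhythm differences depends on that choice. Foxa2, a liver forkhead factor, rose (log2 0.49). Esr1, the oestrogen receptor alpha, fell to 23.6 ± 5.80 CPM, against 53.2 ± 14.2 CPM in HepWT (log2 -1.17 ± 0.09, edgeR adjusted p = 2.75e-08), without overlap of the libraries, and the D-box activator Dbp, which overlaps Sphk2 on the other strand, fell (log2 -1.09), with an amplitude of 1.38 in HepKO and 3.26 in HepWT. Whether these changes bear on any UGT or SULT gene was not tested.

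Related enzymes outside the 2 families changed in both directions. The counts below are to be read beside the 15.6% of all genes that rose and the 15.2% that fell. Of 15 tested Golgi sulfotransferases, which sulfate proteins, lipids and glycans, 1 rose (Tpst2, log2 0.17) and 3 fell, with the largest falls in Gal3st1 (log2 -2.34, at 0.187 CPM in HepKO and 0.956 CPM in HepWT) and Chst2 (log2 -0.32). Gal3st1 reached the limit for a test through its HepWT level, so its fall is not free of the filter. The same holds for any other listed gene near 0 in 1 genotype. Of 3 tested glycosyltransferases of the UGT fold, the glucosylceramide synthase Ugcg fell (log2 -0.72) and Alg14 rose (log2 0.28). Of 9 tested genes of sulfatases and steroid handling, 3 rose and 3 fell, with the largest rises in Hsd3b5 (log2 0.68) and Sumf1 (log2 0.20) and the largest falls in Arsa (log2 -0.88) and Hsd17b13 (log2 -0.62). Liver genes that are sex-biased in mouse, listed because several SULT and UGT genes are too, moved beside the members: of 9 tested female-biased genes 1 rose and 7 fell, and of 12 male-biased genes 6 rose and 1 fell. Their summed levels were 220.5 to 299.9 CPM in HepKO and 236 to 432 CPM in HepWT for the female-biased list, and 7079 to 13450 CPM in HepKO and 3449 to 9282 CPM in HepWT for the male-biased list. The part of sex-biased expression in the member results was not tested.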

How the data were processed

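Liver RNA of 24 samples was sequenced. The authors deposited counts, whole numbers that were not normalized, for each gene in each library. Per the labels' protocols, 250 ng of total RNA per library went into a stranded kit after ribosomal RNA depletion; per the submitters' processing notes, reads were aligned with STAR 2.4.0i to mm10. The counter, its annotation and its strand setting are not stated in the labels or notes, and a suffix on 5 HepKO replicate 2 columns is unexplained. All 24 columns were used and matched to samples by title.

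Counts were scaled by TMM and fitted with edgeR 4.0.16 (R 4.3.3, limma 3.58.1, quasi-likelihood F tests, two-sided) over all genes with a mean of at least 0.5 CPM. Day-averaged genotype differences came from a fit with the 12 groups as levels (12 residual degrees of freedom); rhythms and their difference came from a fit of a mean, cosine and sine of 24 h per genotype (18 residual degrees of freedom). P values were adjusted by Benjamini-Hochberg over all 14446 genes, with 0.05 as the threshold, and the fits were tested on simulated data. Levels are CPM after TMM; SDs over the 12 libraries of a genotype include the change over the day. Alternatives were DESeq2 1.42.0, RLE size factors, other filters, a replicate block, a threshold of 0.01, other models of time, leaving out each of the 24 libraries or the 5 of low depth, and either HepWT replicate number alone; leaving out ZT14 was added after seeing the data. Where this left 1 library in a group, it was assumed to vary like the others.

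Chi-square per degree of freedom between the replicates of a group was 8.76 to 56.9, where counting alone gives about 1. No library was thus a repeat of the other in its group, while libraries of different groups were not compared in this way. Over genes as a whole the spread between replicates was above counting error. For members of few counts, such as Ugt1a10 and Ugt1a8, the count also limits the precision. Without molecular identifiers, PCR copies count as separate reads. Positions, overlaps and shared 100-base windows came from GENCODE gene models of GRCm38, and the counts may rest on another annotation. All tested members are named; library values are given for those called with a log2 difference of at least 1 in size or a rhythm difference, and each pathway list is represented by up to 2 increases and 2 decreases that passed; some genes that the rule names are not reported here. Papss2, Abcc2 and the libraries singled out were named after their values were seen. Members and lists were chosen with earlier results of these data known, and no test was run over a list.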

Additional observations from a re-analysis of the deposited data

Results flagged for a closer look

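The rhythm of Ugt2b34 differed between the genotypes by a direct test of the 24 h terms, with an amplitude of 0.07 ± 0.05 (log2, SE) in HepKO and 0.36 ± 0.05 in HepWT (edgeR adjusted p = 0.0203, 12 libraries each). Both HepKO libraries lay above both HepWT libraries at ZT2 and ZT6 and below them at ZT14, ZT18 and ZT22. Over the 35 alternatives the adjusted p ran from 0.000453 with DESeq2 to 0.252 with HepWT replicate 1 libraries alone, while the amplitude stayed lower in HepKO, by 0.24 to 0.32 (log2).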

How the results depend on the processing

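Of the 19 members whose genotype difference passed, 16 kept direction and call under all 35 alternatives; Ugt2b5 and Ugt2b37 lost the call in 1 each and Ugt3a1 in 12. The counts of UGT genes higher (6 to 8) and lower (8), and of SULT genes higher (3 to 4) and lower (1), held when each library was left out. Direction turned only for members that did not pass: Ugt2b34 was -0.0063 without a filter, -0.00121 with the 5 shallow HepKO libraries left out and -0.00652 against HepWT replicate 2 alone; Ugt2a3 was 0.0447 against HepWT replicate 2 alone and 0.0444 without ZT14; Ugt1a5 was 0.138 against HepWT replicate 2 alone, but passed against replicate 1 alone (-0.485) and without a filter (-0.262); Sult5a1 was 0.18 and Sult2a7 0.00769 against HepWT replicate 1 alone. With single libraries left out, Ugt2b34 ran from -0.0251 to 0.031, Ugt2a3 from -0.0387 to 0.0238 and Sult2a7 from -0.166 to 0.0687.

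Counts of rhythms moved far more, and the cause was not tested. At an adjusted p of 0.01 the UGT rhythms numbered 0 in HepKO and 2 in HepWT with 0 differences, the SULT rhythms 0 in HepKO and 2 in HepWT, and over all genes 1505 were higher, 1380 lower, 978 rhythmic in HepKO, 3167 rhythmic in HepWT and 117 different in rhythm. The interaction with time called 0 UGT genes. DESeq2 called 2 UGT rhythm differences and 600 over all genes. Without a filter, UGT rhythms numbered 5 in HepKO and 13 in HepWT with 5 differences, SULT rhythms 4 in HepKO with 3 differences, and 1367 genes differed in rhythm in all. With the 5 shallow HepKO libraries left out, 0 UGT rhythms in HepKO, 3 SULT rhythms in HepWT and 0 UGT differences were called, and over all genes 1433 were higher, 1414 lower, 190 rhythmic in HepKO and 73 different. With HepWT replicate 1 alone, 1 SULT rhythm in HepWT and 0 UGT differences were called (2424 rhythms in HepWT and 170 differences over all genes); with replicate 2 alone, 3 UGT rhythms in HepWT and 0 UGT differences (2764 and 153 over all genes). Without ZT14, 3 SULT rhythms were called in HepWT. With single libraries left out, UGT rhythms numbered 1 to 3 in HepKO and 3 to 8 in HepWT with 0 to 3 differences, SULT rhythms 0 to 2 in HepKO and 3 to 5 in HepWT, and 190 to 345 genes differed in rhythm, the lowest without HepKO ZT2 replicate 1.

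Replicate numbers grouped libraries within HepWT, where deviations of libraries with the same number correlated above 0.1 in 12 of 15 pairs of groups (median 0.208) and 66 genes differed between the numbers. They did not do so within HepKO (1 of 15 pairs) or over the series as a whole (15 of 66 pairs), so the numbers were not taken to pair the samples. With the replicate block, 7 UGT genes were higher and 8 lower, 3 SULT genes higher and 1 lower, and 1 UGT rhythm differed, the same counts as without it. The block gave both genotypes the same replicate term, so it could not fully take up a shift present in HepWT alone.

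Depth limited the least abundant members: Ugt1a10 and Ugt1a8 had 14 and 24 counts over all HepKO libraries, and intervals from counts would cover counting error only.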
